A study of Mus musculus with 12 samples.

Results

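The CDK1-cyclin B switch and Mos are described here through 10 of the 55573 genes counted in mouse oocytes. The 10 members, Cdk1, Ccnb1, Ccnb2, Ccnb3, Wee2, Cdc25a, Cdc25b, Mastl, Mos and Fbxo43, were chosen by symbol and matched through the Ensembl identifiers of GENCODE mouse release 21 (build GRCm38). The choice was made with earlier results of these data known. All 10 members were found in every count table.

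A fully grown mammalian oocyte waits in prophase of meiosis I, with its nuclear envelope (the germinal vesicle, GV) intact, while the kinase CDK1 and its cyclin B partner are held inactive by phosphate groups that the Wee kinases add. CDC25 phosphatases take these phosphates off and so start the first meiotic division, and the Greatwall kinase MASTL restrains the phosphatase that opposes CDK1. After resumption, the kinase MOS drives the MAP kinase path and the inhibitor EMI2 (Fbxo43) restrains cyclin degradation, and together they hold the egg at metaphase II; much of this rests on stored messenger RNA that is translated later.

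Single GV oocytes came, per the methods, from a B6D2F1 female aged 12 weeks and were kept in M2 medium with milrinone, an inhibitor that prevents resumption of meiosis. There were 12 poly(A) RNA-seq libraries in 6 groups of 2. Whole oocytes, 6 in number, gave 1 library each, amplified by PCR for 10, 14 or 18 cycles, and lysates of 2 further oocytes were diluted to 1/2, 1/4 and 1/8 of an oocyte and, per the methods, amplified for 18 cycles. Every library also received the same amount of the ERCC spike-in, a mix of 92 synthetic RNAs. All oocytes are untreated apart from this, share a stage and a strain, and the methods name no second animal. The comparisons ask how cycle number and input amount alter measured levels, with and without the spike-in as the scale.

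Counts on genes were 11597144 and 9189672 in the pair of libraries at 10 cycles and 12349577 and 13806199 at 14 cycles, against 3017069 and 1706478 at 18 cycles. In the fractions they came to 4024670 and 3598549 for 1/2, 4027907 and 5049518 for 1/4, and 11404262 and 1702062 for 1/8 of an oocyte. Whole oocytes at 18 cycles therefore had the lowest depth among whole oocytes, and depth, oocyte and preparation cannot be told apart from cycle number. Gene counts per ERCC count were 323 and 360 at 10 cycles and 347 and 354 at 14 cycles, against 1873 and 1158 at 18 cycles. The fractions gave 439 and 344 for 1/2, 214 and 174 for 1/4, and 49.3 and 46.5 for 1/8. On this scale the whole oocytes at 18 cycles stand apart from the other whole oocytes, so results that rest on them are given with other scales and references as well. Their ERCC counts were 1611 and 1474, against 35852 and 25528 at 10 cycles and 35616 and 39046 at 14 cycles. The fractions had 9167 and 10467 ERCC counts for 1/2, 18802 and 29075 for 1/4, and 231470 and 36593 for 1/8.

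The oocyte label was checked with 10 oocyte markers (Zp1, Zp2, Zp3, Gdf9, Bmp15, Oosp1, Nlrp5, Ddx4, Figla and Kit), and all 10 had counts in each of the 12 libraries. Their summed level was 21098 and 18227 CPM (counts scaled by the total of gene counts) at 10 cycles and 20683 and 21706 at 14 cycles, against 6346 and 5193 at 18 cycles. In the fractions the sum was 6523 and 7276 CPM for 1/2, 11428 and 11365 for 1/4, then 15869 and 14826 for 1/8. The sum of the oocyte markers is thus lowest at 18 cycles in whole oocytes and in 1/2 of an oocyte, but not each marker follows it: Figla had 46.0 and 47.1 CPM at 10 cycles, 76.6 and 29.9 at 18 cycles, and 80.0 and 63.4 in 1/2. Of 12 markers of cumulus and granulosa cells, 7 to 12 had counts in a library, with sums of 172 and 85.6 CPM at 10 cycles and 108 and 165 at 14 cycles, against 67.9 and 28.7 at 18 cycles. The fractions had sums of 34.3 and 32.5 CPM for 1/2, 59.3 and 60.2 for 1/4, and 78.3 and 77.0 for 1/8. By TPM, Inha was the most abundant of the 12 in replicate 1 at 10 cycles, replicate 2 at 14 cycles and replicate 1 at 18 cycles, and Cyp19a1 or Nr5a2 elsewhere. The marker Fshr was at 0 in 9 of the 12 libraries, but other markers of the list had counts there. Replicate 1 at 10 cycles had 396 counts of Inha, 377 of Gja1 and 71 of Amh, against 3, 0 and 1 in replicate 2. Replicate 1 at 18 cycles had 52 of Inha, 20 of Amh and 11 of Foxl2, against 1, 1 and 0 in replicate 2. Both marker sums were lower in whole oocytes at 18 cycles than at 10 cycles and in 1/8. The cumulus and granulosa sum also differed within the pair at 10 cycles. Cyp19a1 and Nr5a2 had 32.6 and 37.4 CPM of the 85.6 in replicate 2 at 10 cycles. The part of either sum in the results on the members was not tested.

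Levels are given as TPM, counts per kilobase of merged exons scaled to the same total in every library, which allows genes to be compared. Cdk1 (ENSMUSG00000019942, chromosome 10 from 69335146 to 69352938, minus strand) encodes the kinase itself. It measured 139 and 130.2 TPM at 10 cycles and 130.0 and 164 at 14 cycles, against 110.1 and 33.9 at 18 cycles. In the fractions it measured 86.4 and 91.2 TPM for 1/2, 83.6 and 112 for 1/4, then 175 and 101 for 1/8. The libraries at 18 cycles lie below all 4 at 10 and 14 cycles, and replicate 2, with 95 counts against 545 in replicate 1, is far below its partner.

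The B-type cyclins bind CDK1 and give it activity and substrates. Ccnb1 (ENSMUSG00000041431, chromosome 13 from 100778650 to 100786570, minus strand) measured 265 and 214 TPM at 10 cycles and 283 and 291 at 14 cycles, against 37.3 and 51.7 at 18 cycles. In the fractions Ccnb1 measured 56.7 and 55.4 TPM for 1/2, 70.8 and 118 for 1/4, and 225 and 197 for 1/8. Whole oocytes at 18 cycles have the lowest Ccnb1 of all 12 libraries, while the 1/8 pair overlaps the pair at 10 cycles. Ccnb2 (ENSMUSG00000032218, chromosome 9 from 70407692 to 70421547, minus strand) goes the other way, with 184 and 217 TPM at 10 cycles and 201 and 195 at 14 cycles, against 305 and 238 at 18 cycles. Its fractions gave 249.5 and 201 TPM for 1/2, 206 and 219.6 for 1/4, and 276 and 169 for 1/8. Both whole oocytes at 18 cycles exceed the 4 at 10 and 14 cycles in Ccnb2, but they overlap the fractions.

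Ccnb3 (ENSMUSG00000051592, chromosome X from 6979652 to 7041619, minus strand), a B-type cyclin of meiosis, is the rarest member. It had 87 and 100 counts at 10 cycles and 83 and 113 at 14 cycles, against 1 and 0 at 18 cycles. The fractions had 10 and 0 counts for 1/2, 9 and 16 for 1/4, and 52 and 15 for 1/8. In TPM this is 5.35 and 7.72 at 10 cycles, 4.64 and 5.64 at 14 cycles, and 3.02 and 5.94 for 1/8. Over gene counts, the pooled rate at 18 cycles was 42.5-fold lower than at 10 cycles, with an exact 95% interval of 7.53 to 1687, and 35.4-fold lower than at 14 cycles, with an interval of 6.28 to 1405. PCR reads without molecular identifiers are not independent molecules, so intervals and floors cover counting error only. Ccnb3 at 0 counts allows up to 3 counts, or 1.76 CPM, in replicate 2 at 18 cycles and 0.834 CPM in replicate 2 of 1/2.

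Among the 3 cyclins, Ccnb1 made up 58.3% and 48.8% of summed TPM at 10 cycles and 57.9% and 59.1% at 14 cycles, against 10.9% and 17.9% at 18 cycles. Its share was 18.4% and 21.6% for 1/2, 25.4% and 34.8% for 1/4, then 44.7% and 53.0% for 1/8. The leading cyclin transcript is thus Ccnb1 in 3 of the 4 libraries at 10 and 14 cycles and Ccnb2 in both at 18 cycles. A share within one library does not depend on the scale chosen between libraries, but it does depend on the length used. By longest transcript Ccnb1 also leads in replicate 2 at 10 cycles, at 290.1 TPM against 174 for Ccnb2, and so in all 4.

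Wee2 (ENSMUSG00000037159, chromosome 6 from 40439088 to 40466813, plus strand) encodes the oocyte form of the Wee kinases, which inhibit CDK1. It measured 535 and 545 TPM at 10 cycles and 518 and 477 at 14 cycles, against 120.3 and 185 at 18 cycles. The fractions gave 137 and 193 TPM for 1/2, 176 and 232 for 1/4, then 407 and 459.7 for 1/8. The 4 whole oocytes at 10 and 14 cycles are highest, the 1/8 pair comes next without overlapping them, and the 1/2 pair overlaps the whole oocytes at 18 cycles. Of the summed TPM of Wee2, Wee1 and Pkmyt1, the kinases that place inhibitory phosphate on CDK1, Wee2 held 86.9% and 89.0% at 10 cycles and 86.8% and 83.1% at 14 cycles, against 35.8% and 52.4% at 18 cycles. Its share was 53.8% and 62.0% for 1/2, 43.4% and 57.4% for 1/4, and 83.9% and 85.7% for 1/8.

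Cdc25a (ENSMUSG00000032477, chromosome 9 from 109875579 to 109893895, plus strand) and Cdc25b (ENSMUSG00000027330, chromosome 2 from 131186949 to 131198497, plus strand) encode phosphatases that activate CDK1. Cdc25a measured 55.9 and 88.4 TPM at 10 cycles and 50.0 and 44.2 at 14 cycles, against 174 and 264 at 18 cycles. In the fractions Cdc25a measured 94.1 and 139.9 TPM for 1/2, 139 and 98.4 for 1/4, and 39.3 and 75.1 for 1/8. This is the mirror of Ccnb1: whole oocytes at 18 cycles are highest, 1/2 and 1/4 lie between, and 1/8 overlaps the range at 10 and 14 cycles. Cdc25b measured 107 and 100.1 TPM at 10 cycles and 100.1 and 101 at 14 cycles, against 45.2 and 32.6 at 18 cycles. Its fractions gave 35.7 and 51.2 TPM for 1/2, 77.7 and 77.3 for 1/4, and 59.1 and 67.0 for 1/8. Cdc25b therefore falls on the opposite side from Cdc25a, and no fraction reaches its level at 10 or 14 cycles. Within the family, Cdc25a held 31.9% and 43.9% of the summed TPM of Cdc25a, Cdc25b and Cdc25c at 10 cycles and 31.1% and 28.4% at 14 cycles, against 78.2% and 88.0% at 18 cycles. These shares, too, depend on length: by longest transcript, replicate 2 at 10 cycles had 151 TPM of Cdc25a, 96.8 of Cdc25b and 19.1 of Cdc25c, so that Cdc25a leads there. Cdc25b shares 92 of its 3728 exon bases with Spef1 on the opposite strand; whether reads were counted by strand was not settled, so counts from that stretch are uncertain.

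Mastl (ENSMUSG00000026779, chromosome 2 from 23115606 to 23156024, minus strand) encodes Greatwall, which protects CDK1 substrates from PP2A-B55. It measured 177 and 157 TPM at 10 cycles and 152 and 139.9 at 14 cycles, against 46.1 and 63.0 at 18 cycles. The fractions gave 50.8 and 63.7 TPM for 1/2, 55.2 and 50.7 for 1/4, and 134.8 and 134.9 for 1/8. Mastl thus forms a low set (18 cycles whole, 1/2 and 1/4) and a high set (10 and 14 cycles and 1/8), with no library between 63.7 and 134.8 TPM.

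Mos (ENSMUSG00000078365, chromosome 4 from 3870657 to 3872105, minus strand), the kinase at the head of the MAP kinase path, is the most abundant member in every library. It measured 2905 and 2864 TPM at 10 cycles and 2737 and 3091 at 14 cycles, against 553 and 735 at 18 cycles. The fractions gave 1292 and 745 TPM for 1/2, 911 and 1341 for 1/4, and 3402 and 1977 for 1/8. Both whole oocytes at 18 cycles are below every other library, and the 1/8 pair spans the values at 10 and 14 cycles. By TPM among 55394 annotated genes, Mos ranked 30 and 30 at 10 cycles and 30 and 29 at 14 cycles, against 274 and 185 at 18 cycles. As a fraction it ranked 75 and 160 for 1/2, 109 and 51 for 1/4, and 20 and 43 for 1/8. Mos alone held 64.6% and 64.1% of the members' summed TPM at 10 cycles and 36.6% and 43.1% at 18 cycles in whole oocytes. That sum was 4498 and 4465 TPM at 10 cycles and 4303 and 4638 at 14 cycles, against 1510 and 1705 at 18 cycles.

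Fbxo43 (ENSMUSG00000048230, chromosome 15 from 36150060 to 36164884, minus strand) encodes EMI2, which restrains the ubiquitin ligase that removes cyclin B. It measured 124 and 142 TPM at 10 cycles and 127 and 129 at 14 cycles, against 119 and 102 at 18 cycles. The fractions gave 117 and 129.8 TPM for 1/2, 90.8 and 98.8 for 1/4, and 127 and 91.4 for 1/8. By the ratio of highest to lowest TPM, Fbxo43 had the narrowest range of the 10 genes, and its lowest values are in 1/4 and in replicate 2 of 1/8.

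**Figure D1:**
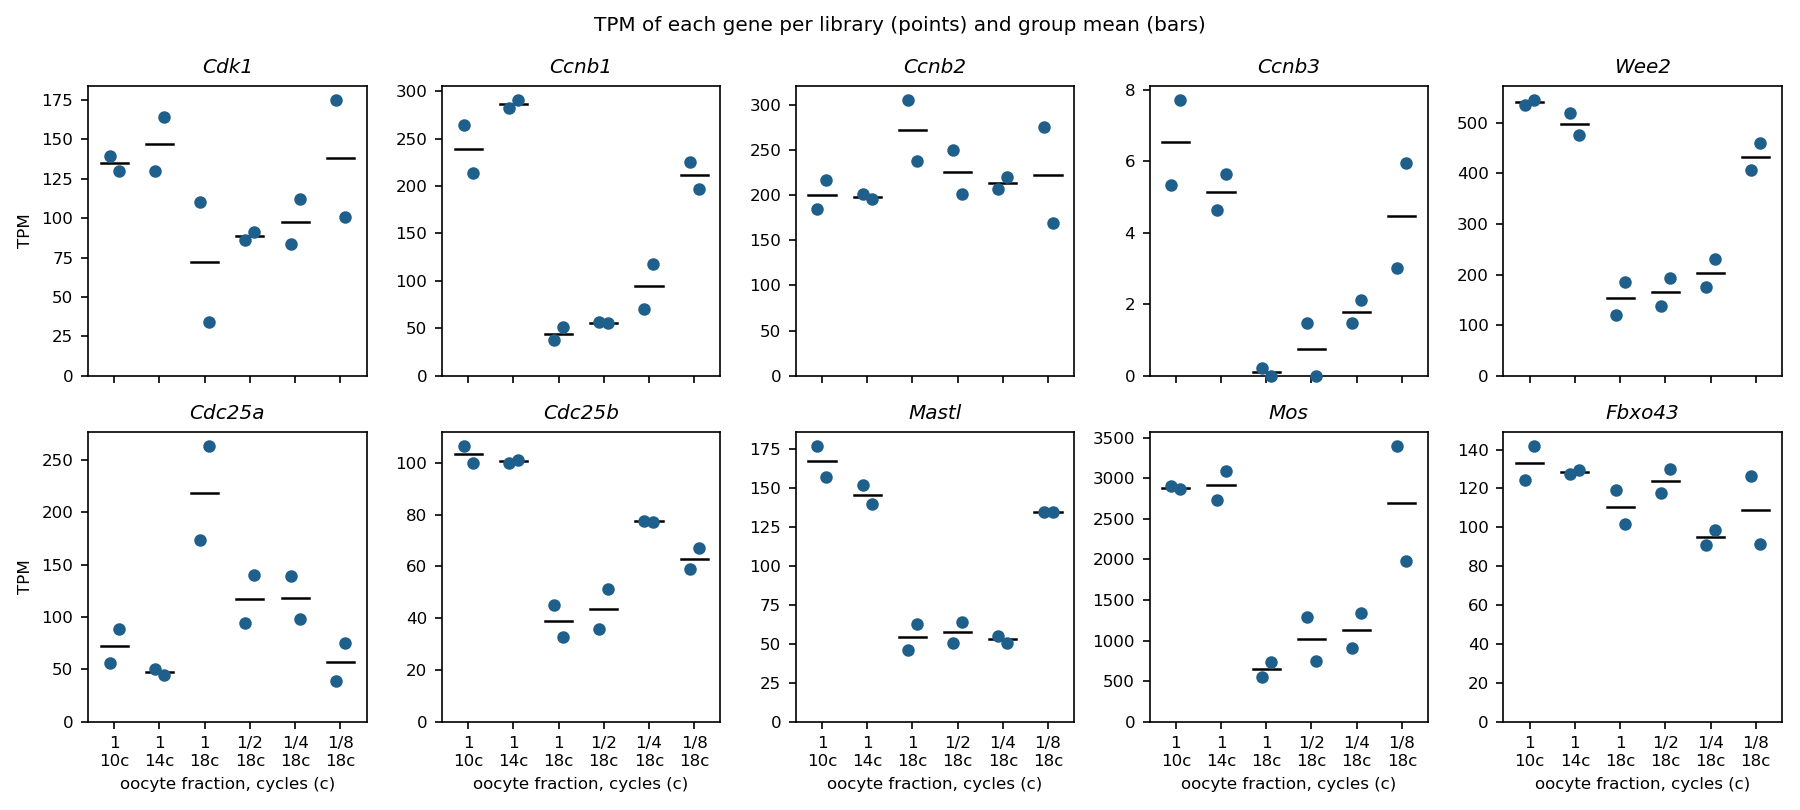
TPM of each member (vertical axis, from 0) in each of the 12 libraries, grouped by oocyte fraction and PCR cycles (c); points are libraries and bars are means of 2. Ccnb1, Wee2, Mastl and Mos are low in whole oocytes at 18 cycles and high in 1/8, while Cdc25a runs the other way.

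Ordered by mean TPM at 10 cycles, the members run Mos (2885 ± 29.2, SD, n = 2), Wee2 (540.2 ± 7.13), Ccnb1 (239 ± 35.9), Ccnb2, Mastl, Cdk1, Fbxo43, Cdc25b, Cdc25a (72.2 ± 23.0) and Ccnb3. In that order the libraries of Ccnb1 and Ccnb2 overlap, as do those of Cdk1 and Fbxo43. The order depends on the length used: with the longest transcript instead of merged exons (3755 instead of 8023 bases for Cdc25a), Cdc25a came to 124 ± 39.1 TPM at 10 cycles, above Cdk1 (122), Fbxo43 (107) and Cdc25b (100.1), and to 375 ± 111 at 18 cycles, above Ccnb2 (217). At 18 cycles in whole oocytes the order is Mos (644 ± 128, SD, n = 2), Ccnb2, Cdc25a (219 ± 63.5), Wee2 (153 ± 46.1), Fbxo43, Cdk1, Mastl, Ccnb1 (44.5 ± 10.2), Cdc25b and Ccnb3. Here the libraries of Ccnb2 and Cdc25a overlap, as do those of Cdc25a and Wee2, and neighbours from Fbxo43 to Cdc25b. In 1/8 of an oocyte the order is Mos, Wee2, Ccnb2, Ccnb1, Cdk1, Mastl, Fbxo43, Cdc25b, Cdc25a and Ccnb3, where only Ccnb2 with Ccnb1, Cdk1 with Mastl, and Cdc25b with Cdc25a overlap as neighbours.

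For 14 against 10 cycles, edgeR's quasi-likelihood test on the 17532 genes that reached 5 counts in 2 or more of the 6 whole-oocyte libraries called 0 of 10 members at a Benjamini-Hochberg adjusted p under 0.01. All genes gave 0% called, and 513 genes but 0 members had an unadjusted p under 0.05. DESeq2 called 0 members and 2 genes. The differences ran from -0.61 ± 0.30 (log2 fold change ± SE) for Cdc25a to 0.28 ± 0.23 for Ccnb1, with Mos at 0.02 ± 0.22 and Wee2 at -0.11 ± 0.25. With errors of this size and 2 oocytes a group, small differences would be missed.

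For 18 against 10 cycles, with median ratio size factors over genes, the same test called 8 of 10 members, 2 higher and 6 lower. Over all genes it called 23.1%, of which 12.3% of those tested were higher and 10.8% lower. Among genes with 10 or more counts in every library the share called was larger, with 1994 rises and 2042 falls among 9073. All 10 members passed the filter of 5 counts in 2 or more libraries. Ccnb3 passed it through the libraries at 10 and 14 cycles, so its call depends on the filter. The scale matters here: the median log2 fold change of all genes was -0.29 with size factors over genes, -0.38 with TMM, -0.16 with a GC offset and 1.96 with ERCC size factors. Values are therefore also given relative to that median. Size factors move all genes nearly alike, so this position hardly depends on them, and its likeness between scales is no further support.

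Mos had a log2 fold change of -1.77 ± 0.23 (edgeR adjusted p 0.000317), which is -1.48 relative to the median gene with size factors over genes and -1.57 with ERCC size factors. On the ERCC scale itself Mos was 0.39 ± 0.39 (edgeR adjusted p 0.421), so its call is lost. That value is close to its error, so no direction is claimed for Mos on this scale. Ccnb1 had -2.05 ± 0.25 (edgeR adjusted p 0.000198), or -1.75 and -1.81 relative to the median gene on the gene and ERCC scales. The cyclin partner and the MAP kinase activator thus lie below the median gene by more than their errors. Wee2 had -1.43 ± 0.26 (edgeR adjusted p 0.00184), or -1.14 and -1.25 relative to the median gene on both scales in the same order. Mastl had -1.23 ± 0.23 and Cdc25b -1.03 ± 0.20 (edgeR adjusted p 0.00236 and 0.00266). All 5 of these genes are lower on the gene scale and take a positive sign with ERCC size factors, where none passed the threshold in edgeR. Those size factors raise all genes nearly alike, so the change of sign is not particular to these genes.

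Cdc25a had a log2 fold change of 1.99 ± 0.31 (edgeR adjusted p 0.000793) and 4.08 ± 0.47 with ERCC size factors, which is 2.28 and 2.13 relative to the median gene. Ccnb2 had 0.81 ± 0.20 (edgeR adjusted p 0.00985) and 3.06 ± 0.45 with ERCC size factors, or 1.10 relative to the median gene on both. These 2 genes are higher on each of the 4 scales, although Ccnb2 misses the threshold with TMM size factors (0.72, edgeR adjusted p 0.0149) and among genes with 10 or more counts in every library (0.60, edgeR adjusted p 0.0201). Fbxo43 at 0.10 ± 0.19 and Cdk1 at -0.54 ± 0.37 did not pass on the gene scale, but both passed as higher with ERCC size factors, at 2.34 ± 0.43 and 1.87 ± 0.52 (edgeR adjusted p 6.34e-05 and 0.00355). With the GC offset Fbxo43 was 0.72 (edgeR adjusted p 0.0208). Cdk1 rests on which oocyte is used: without replicate 1 at 18 cycles it was -1.51 (edgeR adjusted p 0.00199), and without replicate 2 it was 0.04.

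Leaving out either library at 10 cycles reduced the 8 calls to 3, and the drop was general: over all genes, 2155 rises with 1898 falls among 17532 went to 982 with 927 among 16841 without replicate 1 and to 928 with 688 among 17203 without replicate 2. Without replicate 1 at 10 cycles, Ccnb1, Ccnb3 and Mos passed, while Mastl (-1.18), Cdc25b (-1.03), Ccnb2 (0.66), Cdc25a (1.66) and Wee2 (-1.49) had edgeR adjusted p from 0.0153 to 0.0686. Without replicate 2 at 10 cycles, Cdc25a, Ccnb1 and Mos passed, while Mastl (-1.28), Cdc25b (-1.04), Ccnb2 (0.97), Wee2 (-1.38) and Ccnb3 had edgeR adjusted p from 0.0120 to 0.0225. Ccnb2 also lost its call without either library at 14 cycles (0.81 both times) and without replicate 1 at 18 cycles (0.72). Only Ccnb1 and Mos kept their calls without any single library, with log2 fold changes from -2.35 to -1.73 and from -2.05 to -1.50. A group left with 1 library is assumed to vary like the others.

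The members' median log2 fold change for 18 against 10 cycles was -1.13, and -1.03 over the 9 without Ccnb3, beside -0.29 for all genes. With ERCC size factors the members' median was 1.10, and 1.25 without Ccnb3, beside 1.96 for all genes. The members' median is thus below that of all genes, which describes a list chosen by name with earlier results of these data known. The second scale shifts both alike and adds no support.

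**Figure D2:**
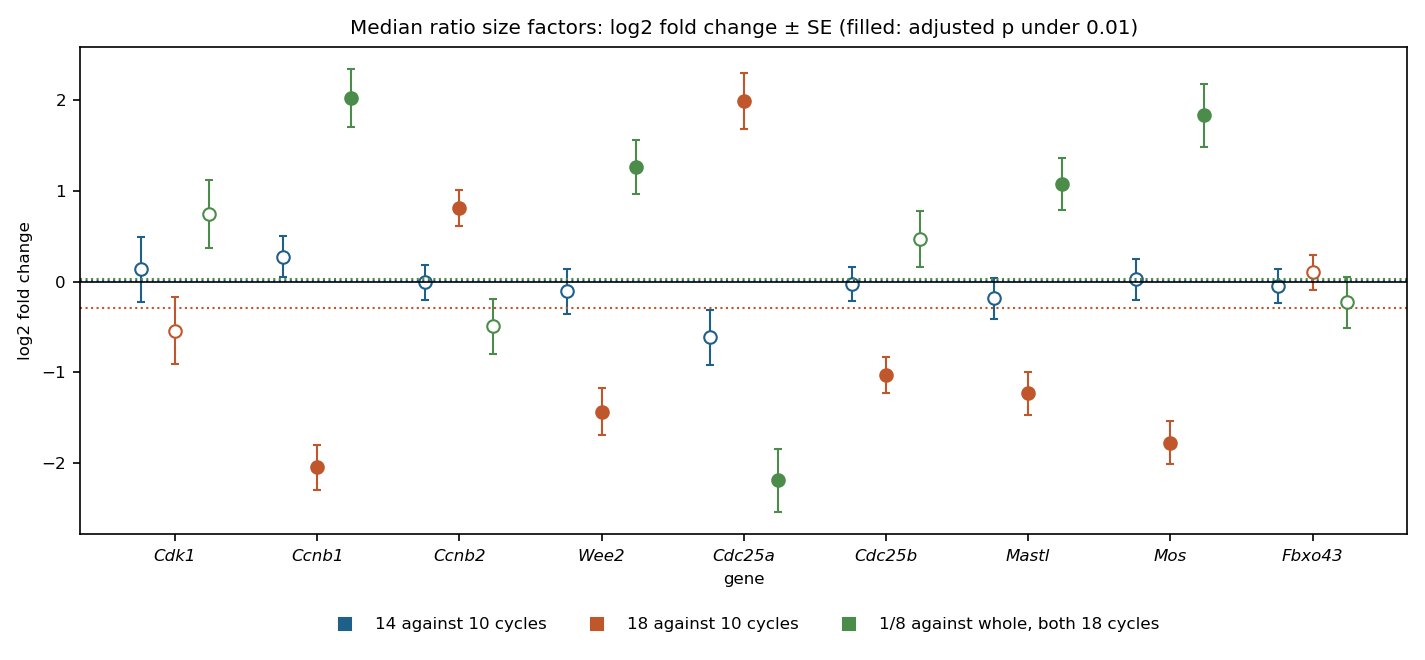
Log2 fold change with size factors over genes (vertical axis) of 9 members for 14 against 10 cycles, 18 against 10 cycles and 1/8 against whole oocytes at 18 cycles; bars are SE, filled points have an adjusted p under 0.01 and dotted lines mark the median of all genes. Ccnb3 is left out because of its counts of 1 and 0 at 18 cycles; Ccnb1, Wee2, Mastl and Mos lie below 0 at 18 cycles and above 0 in 1/8, and Cdc25a the reverse.

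The fractions were compared with whole oocytes at 18 cycles, and these comparisons share both whole-oocyte libraries with the comparison of 18 against 10 cycles. Per the methods, all fractions came from 2 other oocytes, so fraction against whole cannot be told apart from a difference between oocytes. The fits treat the 8 libraries as independent, which the fractions are not. The comparisons ask first how composition differs, with median ratio size factors over 14788 genes kept in 8 libraries. For 1/2, edgeR's quasi-likelihood test called 0 of 10 members, with 0.122% of all genes called; 2 members, Cdc25a and Mos, had an unadjusted p under 0.05, as did 1943 of 14788 genes, and DESeq2 called 0 members. For 1/4, edgeR's test called 0 members, with 0.460% of all genes called; 4 members, Ccnb1, Ccnb3, Cdc25a and Cdc25b, had an unadjusted p under 0.05, as did 2331 of 14788 genes, and DESeq2 called 0 members. For 1/8 the test called 5 members, 4 higher and 1 lower, with 15.7% of all genes called, 7.06% higher and 8.69% lower. Among the 8330 genes with 10 or more counts in every library the share was larger, with 1101 higher and 1048 lower.

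Given side by side for 1/2, 1/4 and 1/8 against whole oocytes on this scale, the log2 fold changes of Mos were 0.72 ± 0.34, 0.63 ± 0.34 and 1.83 ± 0.35, the last with an edgeR adjusted p of 0.000546. Those of Ccnb1 were 0.38 ± 0.31, 0.92 ± 0.31 and 2.02 ± 0.32, the last with an edgeR adjusted p of 0.00011. Wee2 gave 0.13 ± 0.29, 0.25 ± 0.29 and 1.27 ± 0.30, the last with an edgeR adjusted p of 0.00313. For these 3 genes the difference from whole oocytes is largest in the smallest input, though all 3 inputs came from the same 2 oocytes. Mastl gave 0.10 ± 0.29, -0.20 ± 0.29 and 1.08 ± 0.29, the last with an edgeR adjusted p of 0.00826. Cdc25a gave -0.89 ± 0.33, -1.04 ± 0.33 and -2.19 ± 0.35, the last with an edgeR adjusted p of 0.000123. Cdc25a is the 1 member past the threshold as lower in 1/8 on this scale, and its sign is opposite to that of Ccnb1, Wee2, Mastl and Mos in 1/8. The rest of the members in 1/8 were Cdk1 at 0.74 ± 0.37, Cdc25b at 0.47 ± 0.31, Ccnb2 at -0.49 ± 0.31, Fbxo43 at -0.23 ± 0.28 and Ccnb3, with 1 and 0 counts in the reference, and none of these 5 passed in edgeR (adjusted p from 0.0263 to 0.570).

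In 1/8 the calls of Ccnb1 and Cdc25a were kept without any single library, with log2 fold changes from 1.72 to 2.33 and from -2.68 to -1.77. Mos lost its call without replicate 1 of the whole oocytes (1.56, edgeR adjusted p 0.0181) or replicate 1 of 1/8 (1.39, edgeR adjusted p 0.0134). Wee2 lost its call without replicate 1 of the whole oocytes (0.91) or replicate 2 of 1/8 (1.21). Mastl kept its call only without replicate 2 of the whole oocytes (1.38), and without any other of the 8 libraries its edgeR adjusted p was 0.0101 to 0.119. Cdk1 gained a call without replicate 1 of the whole oocytes (1.72, edgeR adjusted p 0.00708). The reference also decides these calls: against whole oocytes at 10 cycles, edgeR called 0 of the 10 members in 1/8, but also 0 of 18041 genes, with 2278 genes at an unadjusted p under 0.05, so this 0 says nothing particular about the members. The members' median in 1/8 was 0.91, and 0.74 without Ccnb3, beside 0.03 for all genes.

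The second scale asks how much of each transcript was recovered per ERCC molecule. In whole oocytes at 18 cycles it rests on 1611 and 1474 ERCC counts, the fewest of the 12 libraries. Mos had 418 and 461 counts per 1000 ERCC counts at 10 cycles and 436 and 503 at 14 cycles, against 499 and 410 at 18 cycles. In the fractions Mos had 300.4 and 126 for 1/2, 93.3 and 111 for 1/4, and 80.2 and 43.3 for 1/8. On this scale the 3 whole-oocyte groups overlap for Mos and every fraction is lower. Ccnb1 had 111 and 100.1 counts per 1000 ERCC counts at 10 cycles and 131 and 138 at 14 cycles, against 98.1 and 84.1 at 18 cycles. Its fractions had 38.4 and 27.2 for 1/2, 21.1 and 28.4 for 1/4, and 15.5 and 12.6 for 1/8. Wee2 had 167 and 190.2 counts per 1000 ERCC counts at 10 cycles and 179 and 168 at 14 cycles, against 235 and 225 at 18 cycles. By this ratio to total ERCC counts, Ccnb1 is lowest and Wee2 highest at 18 cycles among whole oocytes. For Ccnb1 the direction depends on how the spike-in is used: it is lower at 18 than at 10 cycles per ERCC count (91.1 ± 9.86 against 105 ± 7.58, SD, n = 2) but had 0.14 ± 0.39 with ERCC size factors, so no direction on the ERCC scale is claimed for it.

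Cdc25a had 44.6 and 78.8 counts per 1000 ERCC counts at 10 cycles and 44.1 and 39.9 at 14 cycles, against 870 and 816 at 18 cycles. Its fractions had 121 and 131 for 1/2, 78.8 and 45.1 for 1/4, and 5.14 and 9.10 for 1/8. Against the spike-in, Cdc25a in the whole oocytes at 18 cycles stands above all other libraries, and 1/2 of an oocyte at 18 cycles is above whole oocytes at 10 cycles. Cdk1 had 338 and 64.5 counts per 1000 ERCC counts at 18 cycles, against 68.2 and 71.3 at 10 cycles, so its pair at 18 cycles spans the pair at 10 cycles.

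With ERCC size factors, edgeR's quasi-likelihood test called 8 of 10 members lower in 1/2 than in whole oocytes at 18 cycles, with 52.0% of all genes called. It called 9 lower in 1/4, with 69.7% of all genes called, and 9 lower in 1/8, with 87.5% called. With such a background the members' counts say little about the members, and their sizes are the useful part. Dilution alone sets log2 values of -1, -2 and -3, and the medians of all genes against this reference were -1.997, -2.69 and -4.92. The members' medians were -1.79, -2.52 and -4.09, and -1.79, -2.62 and -4.37 without Ccnb3.

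For 1/8 with ERCC size factors, Cdc25a differed most, at -7.07 ± 0.59, followed by Ccnb2 at -5.47 ± 0.57, Fbxo43 at -5.20 ± 0.54 and Cdc25b at -4.53 ± 0.56. Cdk1 was at -4.37 ± 0.57, Mastl at -3.82 ± 0.51 and Wee2 at -3.61 ± 0.49. Mos at -3.04 ± 0.50 and Ccnb1 at -2.87 ± 0.50 were nearest to the dilution itself with this reference. In 1/2 the values ran from -2.81 ± 0.48 for Cdc25a to -1.13 ± 0.47 for Mos (edgeR adjusted p 0.0320, not past the threshold), and in 1/4 from -3.65 ± 0.50 for Cdc25a to -1.79 ± 0.48 for Ccnb1. Against whole oocytes at 18 cycles, Cdc25a thus differs most in all 3 fractions, and Mos or Ccnb1 least, leaving aside Ccnb3, whose reference counts are 1 and 0.

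These sizes and their order depend on the reference. Against whole oocytes at 10 cycles, with ERCC size factors, the medians of all genes were -0.12, -0.81 and -2.82 for 1/2, 1/4 and 1/8, and against all 6 whole oocytes they were -1.15, -1.90 and -3.94. In 1/8 against 10 cycles, edgeR called all 10 members lower, beside 13401 of 18041 genes, and their values lay close together: Cdc25b -3.35 ± 0.41, Cdc25a -3.03 ± 0.41, Wee2 -2.96 ± 0.36, Mastl -2.94 ± 0.37, Fbxo43 -2.93 ± 0.40, Ccnb1 -2.80 ± 0.37, Mos -2.73 ± 0.42, Cdk1 -2.58 ± 0.48 and Ccnb2 -2.48 ± 0.42. Cdc25a no longer stands apart with this reference, and its values in 1/2 and 1/4 were positive (1.22 and 0.28). Against all 6 whole oocytes, edgeR called 7 members lower in 1/8, beside 8512 of 18041 genes, and Cdc25a (-5.70 ± 1.89), Ccnb2 (-4.31 ± 1.34) and Ccnb3 did not pass. The distance of a member from the dilution is therefore not a trait of the fractions alone.

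The 1/2 result depends on single libraries, as it does for genes in general: calls over all genes went from 7697 of 14788 to 1930 of 14626 without replicate 2 of 1/2 and 3081 of 14609 without replicate 1 of the whole oocytes. Without replicate 2 of 1/2, edgeR called only Cdc25a (-2.83), and without replicate 1 of the whole oocytes it called Mastl (-1.62), Cdc25a (-2.68) and Wee2 (-1.67). In the latter case Cdk1 came to -0.07, Cdc25b to -1.09, Ccnb2 to -1.50, Ccnb1 to -1.33 and Fbxo43 to -1.18, none past the threshold in edgeR. Without replicate 1 of 1/2, Mos passed at -2.02, while Cdk1 (-2.09) and Cdc25b (-1.93) did not, and without either library of 1/4, Ccnb1 did not pass (-1.50 and -1.51). In 1/4, calls were lost for Cdk1 (-0.94) and Cdc25b (-1.18) without replicate 1 of the whole oocytes, for Ccnb1 (-1.60) without replicate 1 of 1/4, and for Cdc25b (-1.74) and Ccnb1 (-1.98) without replicate 2 of 1/4. In 1/8, the 9 calls were kept without any single library.

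**Figure D3:**
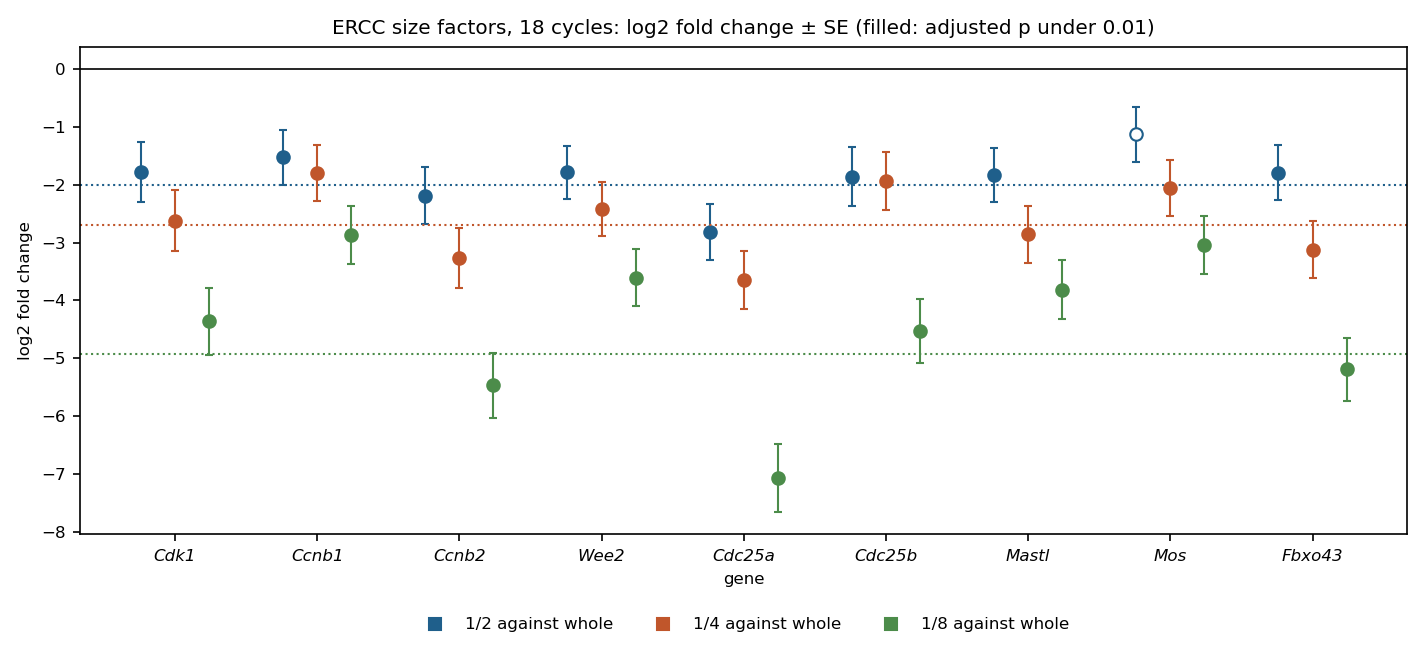
Log2 fold change with ERCC size factors (vertical axis) of 9 members in 1/2, 1/4 and 1/8 of an oocyte against whole oocytes at 18 cycles; bars are SE, filled points have an adjusted p under 0.01 and dotted lines mark the median of all genes. Ccnb3 is left out because of its counts of 1 and 0 in the reference; in 1/8, Cdc25a lies lowest at -7.07 and Ccnb1 highest at -2.87.

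The pathway around the members was followed in 31 further genes, of which Ccna1 had counts in 2 libraries and was not tested. They are counterparts of the members, other CDK partners, the CDK-activating kinase, Greatwall substrates with PP2A-B55, the MAP kinases under Mos, and the Polo kinase with its activator. For 14 against 10 cycles edgeR called 0 of 30; 2 had an unadjusted p under 0.05 and DESeq2 called 0. For 18 against 10 cycles, with size factors over genes, edgeR called 7 higher and 6 lower of 30, beside 12.3% higher and 10.8% lower over all genes. Among genes with 10 or more counts in every library the share called was larger, with 1994 rises and 2042 falls among 9073. The number of calls therefore says little about the pathway genes. The largest rises were Map2k2 (2.21 ± 0.19), a kinase under Mos, Ppp2ca (1.96 ± 0.32), the catalytic subunit that Greatwall signalling restrains, and Wee1 (1.85 ± 0.27). The largest falls were the B55 subunit Ppp2r2b (-1.97 ± 0.25) and the CDK-activating kinase genes Mnat1 (-1.65 ± 0.38) and Cdk7 (-1.60 ± 0.21). Their signs turn positive with ERCC size factors, which raise all genes nearly alike. All 4 counterparts passed, 3 higher (Wee1, Pkmyt1 and Fbxo5) and 1 lower (Cdc25c).

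Some paralogues differed in direction on the gene scale: Wee1 and Pkmyt1 were higher where Wee2 was lower, and Cdc25c (-1.55 ± 0.36) was lower, as Cdc25b was, where Cdc25a was higher. Wee1 measured 22.2 and 19.2 TPM at 10 cycles and 33.4 and 44.4 at 14 cycles, against 71.1 and 43.7 at 18 cycles. Cdc25c measured 12.9 and 12.8 TPM at 10 cycles and 10.6 and 10.5 at 14 cycles, against 3.24 and 3.58 at 18 cycles. These 2 sets at 10 and 18 cycles do not overlap, and a test of the difference between paralogues was not run. Single libraries decide some of these calls: Mnat1 lost its call in edgeR without any one of the 6 libraries (-1.97 to -1.27), Ppp2ca without either at 10 cycles (1.96 both times) and Wee1 without replicate 2 at 10 cycles (1.79). Fbxo5 (0.62 to 0.93) and Cdc25c (-1.59 to -1.37) kept their calls only without replicate 2 at 18 cycles (1.19 and -1.65).

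In the fractions on the gene scale, edgeR called 0 of 28 pathway genes in 1/2, where 6 had an unadjusted p under 0.05 and DESeq2 called 1. It called 1 in 1/4, Ppp2ca at -2.22 ± 0.34, which lost its call without replicate 2 of the whole oocytes (-1.66) or either library of 1/4 (-2.05 and -2.41). In 1/8 it called 4 higher and 3 lower, beside 7.06% and 8.69% over all genes. Among the 8330 genes with 10 or more counts in every library the share was larger, with 1101 higher and 1048 lower. The named pathway genes in 1/8 were Cdk7 (2.07 ± 0.31), Mnat1 (1.87 ± 0.47) and Ppp2r2b (1.62 ± 0.39), all higher, and Map2k2 (-2.07 ± 0.35), Ppp2ca (-1.88 ± 0.34) and Pkmyt1 (-1.64 ± 0.32), all lower. Of these, Cdk7 and Map2k2 passed without any single library. Mnat1 lost its call without any one of the whole oocytes or 1/8 libraries (1.58 to 2.10). The same holds for Ppp2r2b without either whole oocyte or replicate 1 of 1/8 (1.82, 1.44 and 1.58), for Ppp2ca without replicate 2 of the whole oocytes or replicate 1 of 1/8 (-1.33 and -1.70), and for Pkmyt1 without replicate 2 of 1/8 (-1.33).

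With ERCC size factors, edgeR called 21, 26 and 28 of the 28 pathway genes lower in 1/2, 1/4 and 1/8, beside 52.0%, 69.7% and 87.5% over all genes. Of 8330 genes with 10 or more counts in every library, 7121, 8245 and 8329 were called lower. The number of calls therefore says little about the pathway genes. Leaving aside Ppp2cb, whose counts of 0 give no size, the largest falls were Ppp2ca (-3.09 ± 0.48) and Pkmyt1 (-2.73 ± 0.50) in 1/2, Ppp2ca (-4.86 ± 0.52), Ccnh (-3.67 ± 0.56) and Ppp2r2d (-3.62 ± 0.51) in 1/4, and Map2k2 (-7.03 ± 0.62) and Ppp2ca (-6.72 ± 0.56) in 1/8. Ppp2cb also passed in 1/2 and 1/8 and is among the 21 and 28, at 0 counts in both libraries of each against 2 and 9 in whole oocytes. It passed the filter only through the 9 counts in replicate 2 of the whole oocytes and 5 in replicate 1 of 1/4. Its call thus depends on the filter, and nothing is drawn from it. Per 1000 ERCC counts, Ppp2cb had 1.24 and 6.11 in the whole oocytes, while a floor of 3 counts per library amounts to 0.307 in 1/2 and 0.0475 in 1/8. Any lower bound on the fold thus depends on which whole oocyte is used, and none is given. Its call in 1/2 was lost without either library of 1/2.

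Base composition moved with the results. GC percent was taken from each gene's longest transcript. Taking 17513 genes as points (points from the same libraries, not separate replicates), GC percent and log2 fold change for 18 against 10 cycles had a Pearson r of 0.337. The median GC was 53.7% for genes called higher and 45.4% for genes called lower. For 1/8 against whole oocytes, across 14776 genes, r was -0.373 and these medians were 45.0% and 55.2%. The members follow this in part. Of those called lower at 18 cycles, Ccnb1 (44.2%), Wee2 (45.1%), Mastl (40.8%) and Ccnb3 (41.3%) lie below the 45.4%, while Mos (53.5%) and Cdc25b (54.2%) have the highest GC of the 10. Of those called higher, Ccnb2 has 49.3% and Cdc25a 46.0%, beside a median of 49.0% over all genes. With a GC offset in the fit for 18 against 10 cycles, Mos was -1.96, Ccnb1 -1.52 and Cdc25a 2.41, all past the threshold in edgeR, while Wee2 (-0.96) and Mastl (-0.53) lost their calls, with edgeR adjusted p of 0.0108 and 0.0854. In 1/8 the offset gave Mos 2.16, Ccnb1 1.60 and Cdc25a -2.54, again past the threshold, and Wee2 (0.88) and Mastl (0.42) lost their calls.

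Across the 12 libraries, which come in groups and differ in depth, patterns were compared by Pearson's r of log2(CPM + 1) among 8849 genes, as a description. The genes most like Mos were Bnip1 (0.990), Gm43950 (0.989) and Cpsf4l (0.986). Those most like Ccnb1 were Ddb2 (0.986), Oas1d (0.985) and Uqcrc2 (0.984), and those most like Wee2 were Ttc37 (0.993), Dctn5 (0.992) and Zfp708 (0.990). Among the members, Mos had r of 0.955 with Ccnb1, 0.902 with Wee2, 0.882 with Mastl, 0.263 with Fbxo43, -0.433 with Ccnb2 and -0.935 with Cdc25a. Ccnb1 stood at place 66 of the 8849 genes in likeness to Mos, so the likeness of the members is not particular to them.

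Because poly(A) RNA was captured, the ends of the members' transcripts were read from GENCODE release 21 (GRCm38). The last 100 bases of 19546 principal transcripts were searched, on the transcript strand, for the polyadenylation signals AATAAA and ATTAAA and for the letters TTTTAT and TTTTAAT of the cytoplasmic polyadenylation element, through which stored oocyte messages gain poly(A) on maturation. Of all these transcripts 64.6% held AATAAA, 20.3% ATTAAA, 13.8% TTTTAT and 5.05% TTTTAAT, and matches may overlap one another. Of the members, 8 held AATAAA, Fbxo43 held ATTAAA and Mastl held none of the 4. TTTTAT was in the window of Wee2 and Ccnb3 and TTTTAAT in that of Wee2, so 2 of 10 members held either form beside 17.8% of all transcripts. This is a matter of the window: in the whole 3' untranslated region 8 of 10 held either form, among them Ccnb1 (TTTTAT 3 times, TTTTAAT 1 time), Mastl (2 and 5), Cdc25a (3 and 3) and Fbxo43 (6 and 0), and Mos and Cdc25b held neither. All transcripts were not searched over that length, so this count says nothing particular about the members. The 4 genes shown are the 3 whose pattern was compared above and Ccnb3, with 30 bases each in the sense direction and the match in capitals. They are Wee2 at chr6:40466784-40466813 and chr6:40466757-40466786 (plus strand), Ccnb3 at chrX:6979702-6979731, Ccnb1 at chr13:100778656-100778685 and Mos at chr4:3870661-3870690 (minus strand).
Wee2, TTTTAT: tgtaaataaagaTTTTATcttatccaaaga
Wee2, TTTTAAT: tttttaacataTTTTAATccagatcattgt
Ccnb3, TTTTAT: tcttgaaattacTTTTATgaaagaagagaa
Ccnb1, AATAAA: ctttatgttgctAATAAAcatagttttcga
Mos, AATAAA: atatttttaggaAATAAAgttaccacgaac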

How the data were processed

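The 12 poly(A) RNA-seq libraries came from GV oocytes or parts of them, 2 per group. The values used are the counts by gene and by ERCC molecule that the authors deposited, not normalized and made, per the labels, with cutadapt 2.5, STAR 2.7.2a on GRCm38 with the ERCC sequences, and HTSeq 0.9.1. Reads on no feature made up 6.90% to 10.8%. The members and the lists of pathway genes and markers were chosen with earlier results of these data known.

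All genes that reached 5 counts in 2 or more libraries were tested in edgeR 4.0.16 (R 4.3.3; quasi-likelihood), and a Benjamini-Hochberg adjusted p under 0.01 was the threshold. One fit held the 6 whole oocytes in 3 groups, and others held the 8 libraries at 18 cycles in 4 groups, with median ratio size factors over the kept genes or over ERCC molecules. The design set median ratio size factors over genes without naming a gene set, and the kept genes were used. After seeing the data, 2 other gene sets were tried. The fit was tested on simulated data. CPM was taken over gene counts and TPM over merged exons of GENCODE release 21 for 55394 genes.

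Alternatives were DESeq2 1.42.0, other filters, size factors and references, a GC offset, the replicate number as a block, and leaving out each library. Named genes are all members and, in each comparison, up to 3 largest rises and 3 largest falls of the pathway genes past the threshold. The genes of most similar pattern, 3 each for Mos, Ccnb1 and Wee2, had a mean of at least 10 CPM and at least 1 count in every library. Further pathway genes named beside them (Pkmyt1, Fbxo5 and Cdc25c) were chosen after their values were seen.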

Additional observations from a re-analysis of the deposited data

How the results depend on the processing

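Of the alternative values of the members' log2 fold changes, 1117 kept direction and side of the threshold, 86 lost a call, 8 gained one, 19 changed sign with a call on at least one side, and 62 changed sign with no call on either. For the pathway genes 291 kept both, 51 lost a call and 9 that had a call changed sign. Of the alternative levels, 59 moved by less than 1 SD and 61 by more; the order of members by TPM depends on the length used.

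For 18 against 10 cycles, ERCC size factors gave 4 members past the threshold, all 4 higher. On that scale these log2 fold changes changed sign: Cdk1 1.87, Ccnb1 0.14, Wee2 0.71, Cdc25b 1.25, Mastl 0.95, Mos 0.39, Ppp2r2b 0.31, Mnat1 0.52 and Cdk7 0.68. The median of all genes moved from -0.29 to 1.96, so a change of sign is not particular to these genes. No direction on that scale is claimed for Ccnb1 or Mos. The count of all genes was then 8348 higher and 0 lower in edgeR. Leaving out single libraries gave 3 to 8 members. Among genes with 10 or more counts in every library 6 members passed, 1 higher and 5 lower, beside 1994 rises with 2042 falls among 9073 genes. Ccnb2 was not past the threshold and Ccnb3 was not tested.

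With whole oocytes at 10 cycles as reference, 3 members passed in 1/2 and 3 in 1/4 on the gene scale, all lower, and 0 in 1/8. Over all 18041 genes that fit gave 1678 rises with 1242 falls in 1/2, 1050 rises with 752 falls in 1/4, and 0 calls in 1/8 (2278 at an unadjusted p under 0.05). Signs changed with a call in edgeR in 1/2 for Ccnb1 (-1.65), Wee2 (-1.29) and Mastl (-1.12), and in 1/4 for Ccnb1 (-1.13) and Wee2 (-1.20). They changed without a call in 1/2 for Mos (-1.05), Cdc25a (1.10), Cdc25b (-0.83), Cdk1 (-0.17), Ccnb2 (0.61) and Ccnb3, and in 1/4 for Mos (-1.15), Cdc25a (0.93), Cdc25b (-0.20), Cdk1 (-0.25), Ccnb2 (0.30) and Ccnb3. In 1/8, calls from the first reference changed sign for Ccnb1 (-0.0268), Wee2 (-0.18), Mastl (-0.16), Ppp2r2b (-0.36), Map2k2 (0.14), Ppp2ca (0.0686) and Pkmyt1 (0.0672). On the ERCC scale this reference left 1 member in 1/2 and 4 in 1/4, beside 1181 rises with 384 falls and 157 rises with 1399 falls over all genes. Calls from the first reference changed sign in 1/2 for Cdk1 (0.0169), Ccnb2 (0.81), Cdc25a (1.22), Fbxo43 (0.49), Ppp2ca (0.92) and Pkmyt1 (1.17), and in 1/4 for Cdc25a (0.28). In 1/8 on the ERCC scale, 10 members passed with this reference and 7 with all 6 whole oocytes, all lower.

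With all 6 whole oocytes as reference, edgeR called 0 members in 1/8 on the gene scale and 0 in 1/2 and 0 in 1/4 on the ERCC scale. It also called 0 of 18041 genes in each of these 3, with 1465, 2528 and 5801 genes at an unadjusted p under 0.05, so the members are not set apart. The GC offset left 3 members in 1/8 on the gene scale. Over all 14788 genes it gave 813 rises with 928 falls, against 1044 with 1285 without the offset. Leaving out single libraries gave 3 to 5 members in 1/8 on the gene scale and 1 to 8 in 1/2 on the ERCC scale. The cause was not tested for any of these changes.

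Size factors from other gene sets were chosen after seeing the data. Over genes and ERCC molecules together, 8 members passed for 18 against 10 cycles, beside 2161 rises with 1893 falls among 17532 genes. Over all genes before the filter, 7 passed, beside 2131 rises with 1915 falls, and Ccnb2 was at 0.80. Neither labels nor methods state whether fractions of the same number come from the same oocyte. Deviations of same-numbered libraries had r from -0.14 to 0.14, which does not settle this, and the replicate number served only as an alternative. With it as a block, 9 members passed in 1/2 on the ERCC scale, beside 8366 of 14788 genes, against 7697 without the block. Ccnb3 rests on 1 and 0 counts at 18 cycles, and the cause was not tested; replicate 2 of 1/8, with 1702062 gene counts against 1706478 in replicate 2 at 18 cycles, had 15.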
